A study of Homo sapiens with 9 samples.

Results

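EGFR, 4 of its ligands (EREG, AREG, TGFA and HBEGF) and 5 feedback genes of the MAPK pathway (DUSP4, DUSP5, DUSP6, SPRY2 and SPRY4) were described in HT-29 cells treated with 5-Aza. The 10 genes were chosen by name for their place in this pathway, out of 23284 gene symbols, and all 10 were above 0 in every culture. HT-29 is an established human colon cancer cell line that carries a BRAF mutation, and 5-Aza (5-aza-deoxycytidine) inhibits the enzymes that methylate DNA. Paired-end RNA-Seq was run on 9 cultures of this 1 line. There were 3 biological replicates with DMSO, the vehicle, alone (0 µM), 3 with 5 µM and 3 with 10 µM 5-Aza, all treated for 5 days. The comparison of 5 µM with 0 µM asked what the lower concentration does, and that of 10 µM with 5 µM what more of it adds. The comparison of 10 µM with 0 µM was added here. Each pair of these comparisons shares 1 group of cultures, so they are not independent.

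EGFR is a receptor tyrosine kinase on the surface of epithelial cells, and its ligands are made as membrane-bound precursors that are cut free by proteases. The bound receptor signals through RAS, RAF, MEK and ERK. ERK in turn switches on its own inhibitors: DUSP proteins remove phosphate from ERK, and Sprouty (SPRY) proteins dampen the path from receptors to RAS and RAF. A BRAF mutation drives MEK and ERK below the receptor, and in such cells the transcripts of these inhibitors are known to follow ERK activity. In BRAF-mutant colon cancer, signalling through EGFR is known to limit the response to RAF inhibitors. Transcripts, not signalling, were measured here.

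Because the enzymes that 5-Aza inhibits methylate cytosines that precede a guanine, the promoters of 4 members are shown with each CG in capitals: both neighbouring ligand genes on chromosome 4, which parted in their response at 10 µM, the receptor, and the ligand that was higher at 5 µM. The sequences are those of RefSeq on GRCh38.p14 and run 5′ to 3′ on the strand of the gene, from 250 bases before to 50 bases after the start. RefSeq windows were matched for 8 of the 10 genes, and none was matched for DUSP4 and DUSP5. EREG lies at chr4:74364895-74365194 and AREG at chr4:74444886-74445185, both on the plus strand, EGFR (the first of its 2 starts) at chr7:55018767-55019066 on the plus strand, and HBEGF at chr5:140346554-140346853 on the minus strand.
EREG: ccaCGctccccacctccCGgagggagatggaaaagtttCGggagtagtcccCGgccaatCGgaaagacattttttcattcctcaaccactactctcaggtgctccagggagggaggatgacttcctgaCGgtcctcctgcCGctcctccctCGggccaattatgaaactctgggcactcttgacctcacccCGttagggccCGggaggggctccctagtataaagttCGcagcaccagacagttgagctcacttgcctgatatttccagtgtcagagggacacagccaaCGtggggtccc
AREG: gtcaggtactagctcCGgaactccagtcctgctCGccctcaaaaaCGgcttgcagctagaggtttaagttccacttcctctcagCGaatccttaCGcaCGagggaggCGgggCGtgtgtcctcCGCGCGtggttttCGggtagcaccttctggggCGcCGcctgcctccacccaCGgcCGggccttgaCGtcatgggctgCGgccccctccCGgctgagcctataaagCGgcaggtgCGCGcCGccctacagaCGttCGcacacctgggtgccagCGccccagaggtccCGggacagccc
EGFR: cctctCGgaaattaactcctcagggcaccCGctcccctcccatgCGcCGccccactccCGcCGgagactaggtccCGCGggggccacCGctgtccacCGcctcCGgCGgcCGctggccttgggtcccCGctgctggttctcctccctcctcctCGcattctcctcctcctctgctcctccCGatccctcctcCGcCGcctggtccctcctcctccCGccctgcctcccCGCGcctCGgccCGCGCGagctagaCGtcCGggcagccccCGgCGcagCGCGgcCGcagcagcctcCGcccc
HBEGF: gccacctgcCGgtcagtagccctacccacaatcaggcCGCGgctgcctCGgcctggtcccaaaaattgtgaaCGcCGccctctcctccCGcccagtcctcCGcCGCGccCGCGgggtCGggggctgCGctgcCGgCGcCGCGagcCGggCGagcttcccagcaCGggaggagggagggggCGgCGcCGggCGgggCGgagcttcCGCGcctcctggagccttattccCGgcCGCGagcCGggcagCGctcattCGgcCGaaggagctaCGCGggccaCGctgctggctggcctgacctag
The EREG window held 12 CG, a count that 53.1% of all 35116 RefSeq windows of this length reached. AREG had 27 (reached by 28.2%), EGFR 33 (17.2%) and HBEGF 38 (9.91%), while the median window had 14. TATAAA, searched on both strands, stood in the EREG and AREG windows and in 11.5% of all windows. TGACGTCA, which binds CREB and related factors, was found in the AREG window and in 1.85% of all. TGACTCA, the letters that AP-1 binds, was in none of these 4 windows and in 4.95% of all. The window of the second EGFR start, chr7:55109589-55109888, held 1 CG (96% of windows have as many), TATAAA and TGACTCA. These are letters in the reference sequence, and methylation was not analysed here.

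The values are FPKM as deposited, fragments per kilobase of transcript scaled to each library, so that genes can be compared per length. Their scale is arbitrary: the values of a library sum to between 3.69e+09 and 5.91e+09, and a level therefore means something only against other genes and cultures. The members rested on an estimated 331 fragments (SPRY2 in its lowest culture) to 5695 fragments (EREG in its highest). Counting error on that estimate, itself approximate, was at most about 5.5%. On the log2 scale and relative to the vehicle mean, the median gene stood at -0.35 in replicate 1, -0.03 in replicate 2 and -0.32 in replicate 3 of the 10 µM group, and between -0.09 and 0.04 in the other 6 cultures. Over the 15129 to 16071 symbols at 10 FPKM or more in all 6 cultures of a comparison, the median difference was -0.24 in both comparisons with 10 µM and -0.04 for 5 µM vs. 0 µM. Over all genes tested, which include genes near 0, it was -0.15 and -0.31 at 10 µM and 0.14 at 5 µM. The former is called the median gene here, and differences at 10 µM are also given relative to that median gene. Scaling the libraries to equal sums, an alternative used below, moved the median over all genes tested to 0.424 at 5 µM vs. 0 µM. At 10 µM vs. 0 µM it became 0.216. With median-of-ratios scaling these medians were 0.178 and 0.081. All 10 epithelial markers listed (such as EPCAM, CDH1, KRT20 and CDX2) were above 0 in all 9 cultures. Their summed FPKM was 90082986 to 108341137 in vehicle, 37172036 to 41765038 at 5 µM and 29356681 to 51690034 at 10 µM, mostly from KRT8 and KRT18. Every listed marker but CDX1 had a lower mean in both treated groups than in vehicle. In vehicle, at 5 µM and at 10 µM the means were 57123, 34438 and 22185 FPKM for CDX2. They were 5974897, 4328230 and 2502623 for KRT20, and 3996, 17553 and 5294 for CDX1. Of 9 markers of other cell types, CD3E was at 0 in all vehicle cultures, DCN in all at 5 µM and COL1A2 in all at 10 µM, and these 3 averaged at most 804 FPKM elsewhere, as PTPRC did at most 482. Others were higher at 5 µM: in vehicle, at 5 µM and at 10 µM the mean FPKM was 6567, 37114 and 21563 for COL1A1, 3156, 8710 and 3032 for PECAM1, 248, 1748 and 366 for VWF, and 108, 1922 and 852 for PDGFRB. The list's sum of 133027 to 140057, 697307 to 743718 and 219445 to 366485 FPKM came mostly from the lysosomal gene CD68. The part of either shift in the results was not tested.

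In vehicle, AREG stood highest of the 10 genes per length at 631475 ± 59143 FPKM (SD, n = 3) and between the 90.7 and 95.3 percentiles of the symbols above 0 over the 9 cultures. That level is the sum of 2 entries, and the larger entry alone (377752, 342255 and 314934 FPKM) was below DUSP6. Next came DUSP6 (429387 ± 17654), EREG (338427 ± 24059) and TGFA (289098 ± 7368). SPRY4 (241186 ± 2784) and EGFR (239065 ± 15469) did not differ beyond their spread, nor did HBEGF (212082 ± 19124) and DUSP5 (206203 ± 23537). SPRY2 (135142 ± 17912) and DUSP4 (71607 ± 6090) were the lowest. At 5 µM, DUSP5 was next below the summed AREG. EGFR, about level with SPRY4 in vehicle, was at 145716 FPKM on average, below SPRY4, HBEGF and DUSP5.

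**Figure D1:**
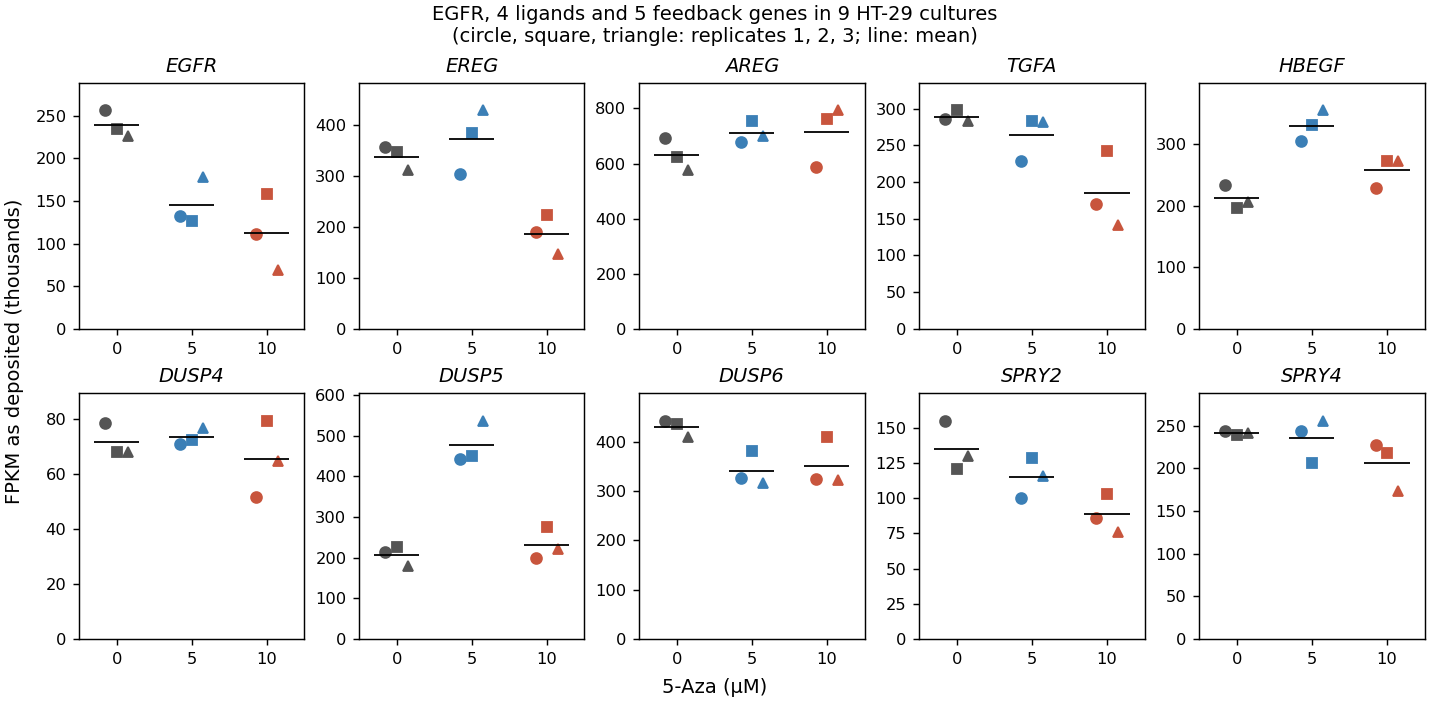
FPKM as deposited, divided by 1000, of the 10 genes (1 panel each, y axis from 0) against 5-Aza concentration in µM, with 1 symbol per culture and a line at the mean of the 3 replicates. DUSP5 and HBEGF are highest at 5 µM, EGFR is lower at both concentrations, and EREG is lower at 10 µM alone.

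All 10 genes passed the filter on low values in each comparison. At 5 µM, 4 of them passed an adjusted p of 0.05 (limma over all genes, Benjamini-Hochberg), HBEGF and DUSP5 being higher and EGFR and DUSP6 lower, against 39.0% of the 20051 genes tested. DUSP5 was the 1 gene that also changed more than 2-fold, as did 16.2% of all genes. Against vehicle, 10 µM had 3 of 10 past the adjusted p (EGFR, EREG and SPRY2, all lower) against 15.1% of 18928 genes, and EGFR also passed the fold threshold, as did 7.48%. For 10 µM vs. 5 µM, 2 of 10 passed (EREG and DUSP5, both lower) against 6.17% of 20085 genes, and DUSP5 also passed the fold threshold, as did 4.95%. The shares at 5 µM were close to those of all genes, and 1 call among 10 genes is 10% of the set. On this scale the filter of 10 FPKM removed few genes: without it, 20115 were tested at 5 µM vs. 0 µM. The shares over all genes thus include genes on few fragments, unlike the 10 genes described. The median difference of the 10 genes was 0.00, -0.27 and -0.37 in these comparisons, beside 0.14, -0.15 and -0.31 over all genes tested.

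**Figure D2:**
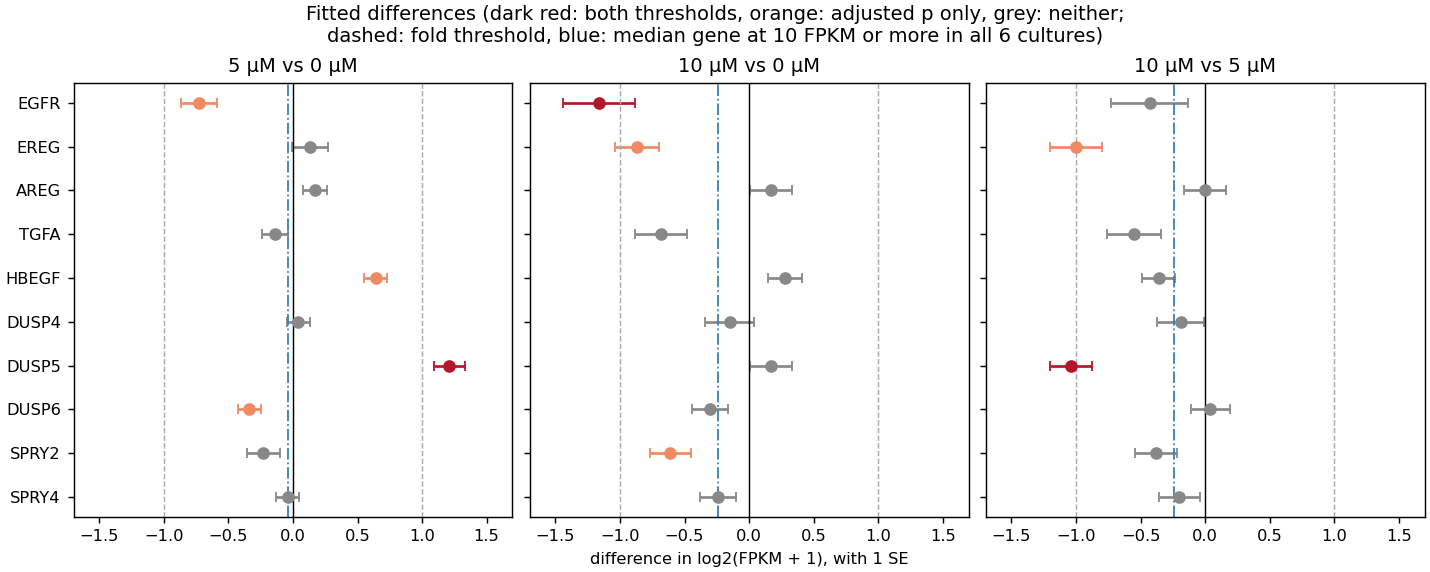
Fitted differences in log2(FPKM + 1) with 1 standard error for the 10 genes in each comparison. Dashed lines mark the 2-fold threshold and the blue line the median gene. DUSP5 lies beyond the threshold at 5 µM vs. 0 µM on the right and at 10 µM vs. 5 µM on the left, and EGFR at 10 µM vs. 0 µM on the left.

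The receptor gene EGFR (ENSG00000146648, chr7:55086710-55279321 on GRCh37, plus strand) fell with both concentrations. It was at 256377, 234218 and 226600 FPKM in the vehicle replicates, at 132908, 126081 and 178160 at 5 µM, and at 111568, 157822 and 69194 at 10 µM. Every treated culture was below every vehicle culture, while the 5 µM and 10 µM cultures overlapped. The log2 difference was -0.73 ± 0.14 (SE, limma adjusted p = 0.00847) at 5 µM, which is 0.603 of the vehicle level, and -1.16 ± 0.28 (adjusted p = 0.0355) at 10 µM, or -0.92 relative to the median gene. That between 10 µM and 5 µM was -0.43 ± 0.30 (adjusted p = 0.407). In bulk RNA, less transcript per cell and fewer expressing cells cannot be told apart.

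The call at 10 µM rested on each of 5 cultures. Without vehicle replicates 1, 2 or 3, or 10 µM replicates 1 or 3, its adjusted p was 0.109, 0.113, 0.0796, 0.0989 and 0.0621, with log2 differences of -1.11, -1.17, -1.20, -1.19 and -0.85. Lengths were compared over genes with a mean FPKM above the median of the expressed genes, 1334 long and 711 short. Their medians need not lie around the median gene of a library, which was -0.35 in 10 µM replicate 1. In 10 µM replicate 3, which held the lowest EGFR value, those with a longest transcript of at least 6000 nt had a median of -0.70 relative to vehicle. Those of at most 1500 nt had one of -0.26. In 10 µM replicate 1, where EGFR was at 111568, these medians were -0.52 and -0.74, and in replicate 2 they were -0.15 and -0.01. In 5 µM replicates 1, 2 and 3 the long transcripts were at -0.35, -0.18 and -0.13 and the short ones at -0.18, -0.05 and -0.21. With libraries scaled to equal sums the differences from vehicle were -0.44 (adjusted p = 0.0531) and -0.78 (adjusted p = 0.06). The longest annotated EGFR transcript has 9905 nt, and the part of length in its value was not tested. The antisense gene EGFR-AS1 overlaps EGFR, and the libraries do not mark strand, so reads of the pair cannot be told apart.

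Among the ligands, EREG and AREG are neighbours on chromosome 4 and encode epiregulin and amphiregulin, low-affinity ligands that colon tumours with active EGFR signalling are known to express. EREG (ENSG00000124882, chr4:75230862-75254466, plus strand, GRCh37) was at 357242, 346721 and 311319 FPKM in vehicle, at 305205, 384709 and 429281 at 5 µM, and at 191287, 223698 and 147437 at 10 µM. All 3 cultures at 10 µM were below the other 6, and the groups at 0 µM and 5 µM overlapped. EREG fell by 0.87 ± 0.17 on the log2 scale at 10 µM vs. 0 µM (limma adjusted p = 0.0217) and by 1.00 ± 0.20 at 10 µM vs. 5 µM (adjusted p = 0.0323). The latter, -0.9994 before rounding, was just short of the fold threshold. Relative to the median gene these were -0.63 and -0.76. At 5 µM the difference was 0.13 ± 0.14 (adjusted p = 0.461). With libraries scaled to equal sums it was 0.42 (adjusted p = 0.0366), where the median over all genes tested was 0.424.

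The adjusted p of EREG at 10 µM vs. 0 µM was 0.0526 to 0.0948 without any 1 vehicle culture or without 10 µM replicate 1 or 3, and at 10 µM vs. 5 µM it was 0.0644 to 0.17 without any 1 culture at 5 µM or without those same 2 at 10 µM. With libraries scaled to equal sums EREG at 10 µM vs. 0 µM was -0.49 (adjusted p = 0.053). The differences themselves lay between -1.14 and -0.49 in all settings tried for the 2 comparisons.

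AREG (ENSG00000109321, chr4:75310853-75320722, plus strand, GRCh37) was at 694240, 623402 and 576784 FPKM in vehicle, 676819, 753973 and 699022 at 5 µM, and 587819, 762847 and 792805 with 10 µM. The 3 groups overlapped. The log2 differences were 0.17 ± 0.09 at 5 µM (limma adjusted p = 0.168) and 0.17 ± 0.16 at 10 µM (adjusted p = 0.495). Relative to the median gene the latter was 0.41. With libraries scaled to equal sums, AREG was at 0.46 at 5 µM (adjusted p = 0.0012) and at 0.55 at 10 µM (adjusted p = 0.0157). Under that scaling the median over all genes tested was itself 0.424 at 5 µM and 0.216 at 10 µM. The symbol has 2 entries in each file, summed here, and the annotation holds a near-identical copy, AREGB, about as long (1239 against 1234 nt). How reads were divided between the copies cannot be read from the values, so the level of AREG is uncertain. The first entry was the larger in 8 of 9 cultures, and in 10 µM replicate 1 it was the smaller (271271 against 316548 FPKM).

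TGFA, which encodes transforming growth factor alpha (ENSG00000163235, chr2:70674416-70781325, minus strand, GRCh37), was at 286249, 297466 and 283580 FPKM in vehicle, 228119, 282644 and 281743 at 5 µM, and 169732, 241901 and 142081 at 10 µM. All treated cultures were below all vehicle cultures, by a small margin in 2 of the 5 µM cultures. The log2 difference at 10 µM was -0.68 ± 0.20 with a limma adjusted p of 0.0566, and at 5 µM it was -0.14 ± 0.10 (adjusted p = 0.306). The vehicle replicates of TGFA lay close together, and those at 10 µM spread widely. Without 10 µM replicate 2, TGFA passed the threshold at 10 µM vs. 0 µM (-0.90, adjusted p = 0.00508). The non-coding gene TGFA-IT1 lies within TGFA on the same strand.

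HBEGF, whose heparin-binding product also serves as the receptor of diphtheria toxin (ENSG00000113070, chr5:139712428-139726188, minus strand, GRCh37), rose at 5 µM. It was at 233529, 196803 and 205915 FPKM in vehicle, 304988, 330595 and 354704 at 5 µM, and 229055, 273083 and 272183 with 10 µM. The 5 µM cultures were above all others, and 2 of the 3 at 10 µM were above vehicle. The log2 difference at 5 µM was 0.64 ± 0.09 (1.56-fold, limma adjusted p = 0.00273), and it passed in all 15 alternative settings. The 10 µM difference from vehicle was 0.28 ± 0.13 (adjusted p = 0.171), or 0.52 relative to the median gene. It passed there with median-of-ratios scaling (0.52, adjusted p = 0.0207) and with equal sums (0.66, adjusted p = 0.00912). The difference between 10 µM and 5 µM was -0.36 ± 0.13 (adjusted p = 0.16).

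Ratios of 2 genes within a culture do not depend on how the libraries were scaled. The 5 ratios were chosen after the values were seen, and 15 exact permutation tests were run on them, whose smallest p with 3 against 3 is 0.1. EREG/AREG was 0.515, 0.556 and 0.54 in vehicle, 0.451, 0.51 and 0.614 at 5 µM, and 0.325, 0.293 and 0.186 with 10 µM. The 10 µM cultures were below all others, and the log2 ratio fell by 1.04 ± 0.25 against vehicle and by 1.00 ± 0.28 against 5 µM (exact two-sided permutation p = 0.1 each). HBEGF/TGFA was 0.816, 0.662 and 0.726 in vehicle, 1.34, 1.17 and 1.26 at 5 µM, and 1.35, 1.13 and 1.92 at 10 µM. Both treated groups were above vehicle without overlap (0.78 ± 0.10 and 0.97 ± 0.24, exact p = 0.1 each). HBEGF/EGFR, a ligand against its receptor, was 0.911, 0.84 and 0.909 in vehicle, 2.29, 2.62 and 1.99 at 5 µM, and 2.05, 1.73 and 3.93 at 10 µM. It was higher in all treated cultures than in vehicle, with 1.37 ± 0.12 and 1.44 ± 0.36 on the log2 scale (exact p = 0.1 each).

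**Figure D3:**
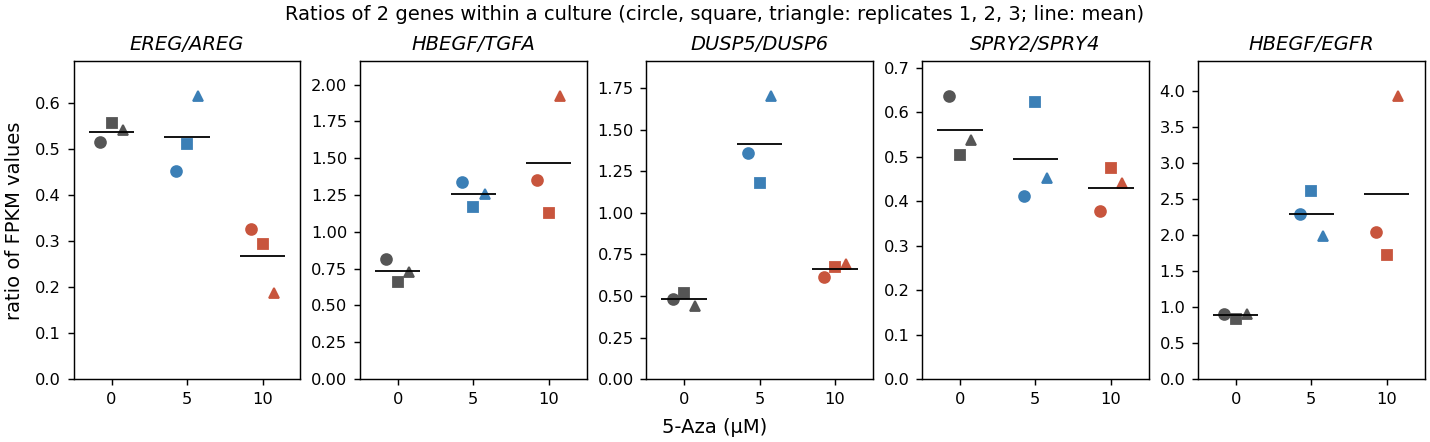
Ratios of the FPKM values of 2 genes within each culture (1 panel each, y axis from 0) against 5-Aza concentration in µM, with a line at the mean of 3 replicates. EREG/AREG is lower at 10 µM, HBEGF/TGFA and HBEGF/EGFR are higher at both concentrations, and DUSP5/DUSP6 is highest at 5 µM.

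Over the 7 genes that encode EGFR ligands, these 4 with EGF, BTC and EPGN, the summed FPKM was 1408689 to 1598110 in vehicle, 1563626 to 1824545 at 5 µM and 1216153 to 1549677 at 10 µM. The ranges of vehicle and 10 µM overlapped. AREG made up 43.4%, 41.6% and 40.9% of that sum in vehicle, 43.3%, 41.3% and 38.5% at 5 µM, and 48.3%, 49.2% and 56.9% at 10 µM. EREG made up 22.4%, 23.1% and 22.1% in vehicle, 19.5%, 21.1% and 23.7% at 5 µM, and 15.7%, 14.4% and 10.6% with 10 µM. The ligand transcripts at 10 µM thus held more AREG and less EREG in every culture than at 0 or 5 µM. HBEGF went from 13.1% to 14.6% in vehicle to 18.1% to 19.5% at 5 µM and 17.6% to 19.5% at 10 µM. BTC made up at most 3.28%, EGF at most 0.668% and EPGN at most 0.256% in any culture. Shares of 1 sum are tied to each other, and no test was run on them.

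**Figure D4:**
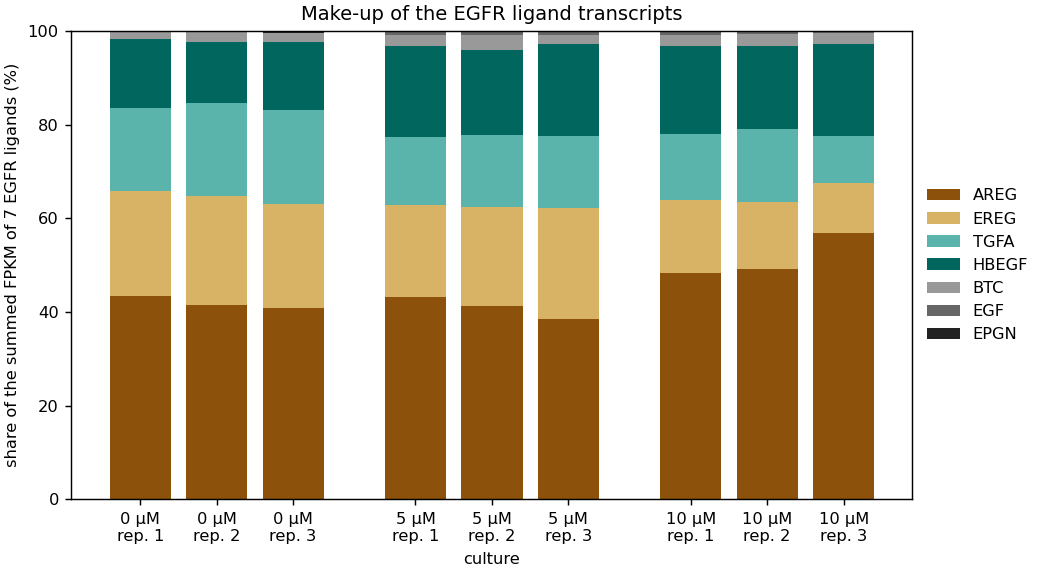
Share in percent of the summed FPKM of 7 EGFR ligand genes taken by each gene, 1 bar per culture. AREG takes 38.5% to 43.4% in the cultures at 0 and 5 µM and 48.3% to 56.9% at 10 µM, where EREG takes 10.6% to 15.7%.

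Of the 3 DUSP genes among the 10, which encode dual-specificity phosphatases, DUSP5 gave the largest change. DUSP5, a nuclear phosphatase of ERK (ENSG00000138166, chr10:112257665-112271291, plus strand, GRCh37), was at 213082, 225534 and 179993 FPKM in vehicle, 442360, 450822 and 537383 at 5 µM, and 199533, 275489 and 222577 with 10 µM. The 5 µM cultures were above all other cultures, and the 0 µM and 10 µM groups overlapped. It rose by 1.21 ± 0.12 on the log2 scale at 5 µM (2.31-fold, limma adjusted p = 0.000726), and in all 15 alternative settings it passed both thresholds, with 1.12 to 1.50. Between 5 µM and 10 µM it fell by 1.04 ± 0.16 (adjusted p = 0.0135), or by 0.80 relative to the median gene. Against vehicle, the 10 µM difference was 0.17 ± 0.16 (adjusted p = 0.496).

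The lower level of DUSP5 at 10 µM than at 5 µM kept its adjusted p but not its 2-fold size under median-of-ratios scaling (-0.84, adjusted p = 0.00743) and equal sums (-0.95, adjusted p = 0.0054). Without 5 µM replicate 1, 2 or 3 the adjusted p was 0.0588, 0.0621 and 0.0832. With those scalings DUSP5 at 10 µM was also above vehicle (0.41, adjusted p = 0.0299, and 0.55, adjusted p = 0.00938).

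DUSP6, the cytoplasmic phosphatase of ERK that is widely used as a readout of its activity (ENSG00000139318, chr12:89741012-89746278, minus strand, GRCh37), did not share that pattern. It was at 442488, 436363 and 409311 FPKM in vehicle, 326084, 380602 and 317001 at 5 µM, and 323573, 408384 and 321327 at 10 µM. Every treated culture was below every vehicle culture. DUSP6 fell by 0.34 ± 0.09 on the log2 scale at 5 µM (0.793 of vehicle, limma adjusted p = 0.0251), and at 10 µM the difference was -0.30 ± 0.14 (adjusted p = 0.167), close to the median gene. At 5 µM the adjusted p was 0.0766, 0.0806, 0.0774 and 0.0808 without vehicle replicate 1 or 2 or 5 µM replicate 1 or 3, and with equal sums the difference was -0.05 (adjusted p = 0.576). The sign at 10 µM turned with equal sums (0.08, adjusted p = 0.537).

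DUSP5/DUSP6 within a culture was 0.482, 0.517 and 0.44 in vehicle, 1.36, 1.18 and 1.7 at 5 µM, and 0.617, 0.675 and 0.693 with 10 µM. The 3 groups did not overlap, with 5 µM highest and 10 µM between. The log2 difference was 1.55 ± 0.17 at 5 µM and 0.47 ± 0.08 at 10 µM against vehicle, and -1.08 ± 0.16 between 10 µM and 5 µM (exact permutation p = 0.1 each).

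DUSP4, a nuclear phosphatase of ERK and other MAP kinases (ENSG00000120875, chr8:29190581-29208201, minus strand, GRCh37), was the lowest of the 10 genes. It was at 78639, 68016 and 68165 FPKM in vehicle, 70988, 72254 and 76850 at 5 µM, and 51704, 79419 and 64698 at 10 µM. All 3 groups overlapped. The log2 differences from vehicle were 0.04 ± 0.09 (limma adjusted p = 0.752) and -0.15 ± 0.19 (adjusted p = 0.566), and the latter was 0.09 relative to the median gene. With libraries scaled to equal sums the difference at 5 µM was 0.32 (adjusted p = 0.0238), below the median of 0.424 over all genes tested.

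Of both Sprouty genes, SPRY2 was lower at 10 µM. SPRY2 (ENSG00000136158, chr13:80910111-80915261, minus strand, GRCh37) was at 155146, 120587 and 129693 FPKM in vehicle, 100087, 128537 and 115892 at 5 µM, and 86021, 103266 and 76295 with 10 µM. The 10 µM cultures were below all vehicle cultures and overlapped with those at 5 µM. SPRY2 fell by 0.61 ± 0.16 on the log2 scale at 10 µM vs. 0 µM (0.654 of vehicle, limma adjusted p = 0.0473), or by 0.37 relative to the median gene. It passed in 6 of 15 alternative settings. It missed the threshold with equal sums (-0.23, adjusted p = 0.258), median-of-ratios scaling (-0.37, adjusted p = 0.0744), no filter on low values (adjusted p = 0.057) and the replicate block (adjusted p = 0.0725), and without any 1 culture other than 10 µM replicate 2 (-0.69 to -0.51, adjusted p = 0.107 to 0.169). At 5 µM it was -0.23 ± 0.13 (adjusted p = 0.203).

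SPRY4 (ENSG00000187678, chr5:141689992-141706020, minus strand, GRCh37) was at 244097, 238550 and 240912 FPKM in vehicle, 243776, 206449 and 255795 at 5 µM, and 227637, 217997 and 172829 with 10 µM. The vehicle cultures lay within a narrow range that those at 10 µM did not reach. The log2 differences were -0.04 ± 0.09 (limma adjusted p = 0.73) at 5 µM and -0.24 ± 0.14 (adjusted p = 0.254) at 10 µM, the latter 0.00 relative to the median gene. The antisense gene SPRY4-AS1 overlaps its start region on the other strand. SPRY2/SPRY4 was 0.636, 0.505 and 0.538 in vehicle, 0.411, 0.623 and 0.453 at 5 µM, and 0.378, 0.474 and 0.441 at 10 µM, where it was below vehicle without overlap (-0.38 ± 0.14 on the log2 scale, exact permutation p = 0.1).

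The rest of the pathway was counted over 5 lists of 68 genes, of which 66 were tested. At 5 µM 31 of the 66 passed the adjusted p (14 higher and 17 lower), or 47% against 39.0% of all genes, and 8 also passed the fold threshold, or 12.1% against 16.2%. At 10 µM vs. 0 µM 15 passed (3 higher and 12 lower), or 22.7% against 15.1%, and 4 passed both, or 6.06% against 7.48%. At 10 µM vs. 5 µM 2 passed, both lower, or 3.03% against 6.17%, and 1 passed both, or 1.52% against 4.95%. Over all genes tested, 4263 were higher and 3553 lower of 20051 at 5 µM at the adjusted p. The numbers were 1020 and 1837 of 18928 at 10 µM vs. 0 µM, and 64 and 1175 of 20085 at 10 µM vs. 5 µM. The counts per list below are small and stand beside these, and no list was tested against them.

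Of the other ligands and receptors of the ERBB family, 8 were tested. At 5 µM 4 were higher and 2 lower. EGF, the founding ligand, was at 1599, 2214 and 1566 FPKM in vehicle, 7360, 10175 and 9157 at 5 µM, and 8120, 7265 and 5550 at 10 µM. All treated cultures were above vehicle, with log2 differences of 2.32 ± 0.29 (limma adjusted p = 0.00168) and 1.96 ± 0.40 (adjusted p = 0.0235). EGF rested on an estimated 11 to 168 fragments. NRG3, a neuregulin that binds ERBB4, was listed at 0 in vehicle and at 1094, 1727 and 1740 FPKM at 5 µM and 765, 437 and 515 at 10 µM (adjusted p = 0.000553 and 0.014), from at most an estimated 19 fragments. Its receptor gene ERBB4 and the neuregulin gene NRG1 were listed at 0 in all 9 cultures. ERBB3, the kinase-impaired partner of EGFR and ERBB2, was picked out after its values were seen. It was at 821040, 851006 and 829502 FPKM in vehicle, 459588, 489254 and 460276 at 5 µM, and 409548, 480575 and 419496 at 10 µM. Every treated culture was below every vehicle culture (-0.83, adjusted p = 0.000304, and -0.94, adjusted p = 0.00821).

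Of 8 genes for the release of membrane-bound ligands, 1 was higher and 1 lower at 5 µM and 1 lower at 10 µM vs. 0 µM. The metalloprotease gene ADAM12 was at 1038, 1403 and 1083 FPKM in vehicle and 3158, 3942 and 2200 at 5 µM (1.37 ± 0.39, limma adjusted p = 0.0353), from an estimated 9 to 80 fragments. Of the 17 genes for adaptors and the RAS-RAF-MEK-ERK chain, 1 was higher and 4 lower at 5 µM and 2 were lower at 10 µM vs. 0 µM. KSR1, a scaffold for RAF, MEK and ERK, was at 11761, 11448 and 13464 FPKM in vehicle and 27224, 24244 and 26879 at 5 µM (1.10 ± 0.14, adjusted p = 0.00163). The groups did not overlap.

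Of the 20 other feedback inhibitors, 5 were higher and 5 lower at 5 µM, and 1 was higher and 4 lower at 10 µM vs. 0 µM. DUSP10, a phosphatase of the stress kinases p38 and JNK, was at 3715, 2460 and 6958 FPKM in vehicle and 8688, 9050 and 12075 at 5 µM (2.46-fold with an SE of 0.42 on the log2 scale, limma adjusted p = 0.0499, from an estimated 11 to 90 fragments). DUSP9, a further phosphatase of ERK, was listed at 0 in vehicle and at 1463, 1847 and 2188 FPKM at 5 µM (adjusted p = 0.000477), from at most an estimated 15 fragments. The Sprouty and SPRED relatives SPRY1 and SPRED1, picked out after their values were seen, were lower at 5 µM (-0.73, adjusted p = 0.00435, and -0.78, adjusted p = 0.00523) and at 10 µM (-0.59, adjusted p = 0.0323, and -0.96, adjusted p = 0.0229).

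Of 13 other transcripts known to follow ERK activity, 3 were higher and 5 lower at 5 µM, 4 were lower at 10 µM vs. 0 µM and 2 were lower at 10 µM vs. 5 µM. ETV1, an ETS transcription factor, was at 6090, 7898 and 7605 FPKM in vehicle, 19476, 21255 and 19503 at 5 µM, and 8582, 12185 and 7904 with 10 µM. The 5 µM cultures were above all others, as for DUSP5 (1.49 ± 0.17 against vehicle, limma adjusted p = 0.00128, and -1.10 ± 0.24 for 10 µM vs. 5 µM, adjusted p = 0.0434). MYC, the growth regulator, fell by 1.47 ± 0.10 on the log2 scale at 5 µM (adjusted p = 0.000297), from 872675 to 1094070 FPKM in vehicle to 338302 to 383660. At 10 µM, MYC lay between, at 507795 to 742677 FPKM (-0.75 against vehicle, adjusted p = 0.0406). PHLDA1, an early ERK-induced gene, fell by 1.08 ± 0.20 at 10 µM vs. 0 µM (adjusted p = 0.0187), from 351608 to 455365 FPKM to 165837 to 256364. PHLDA1 was also lower at 5 µM (-0.72, adjusted p = 0.0113). Genes of this list thus moved both ways at 5 µM, as did all genes tested (4263 higher and 3553 lower of 20051).

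Of these genes from the lists, EGF, NRG3, DUSP9, ETV1, MYC, ERBB3, SPRY1 and SPRED1 at 5 µM and ERBB3 at 10 µM vs. 0 µM kept an adjusted p of at most 0.05 in all 15 alternative settings. For NRG3 and DUSP9 this says little. Both were listed at 0 in every vehicle culture and rested on at most an estimated 19 and 15 fragments. KSR1 passed in 14, missing it with all 9 cultures in one fit. DUSP10 passed in 8 and missed it without any 1 culture other than vehicle replicate 3, and ADAM12 passed in 9 and missed it without vehicle replicate 1 or 3 or 5 µM replicate 1 or 2. For 10 µM vs. 0 µM, EGF and SPRED1 passed in 10, each lost without any 1 culture other than 10 µM replicate 2. NRG3 passed in 14 (0.0576 without 10 µM replicate 3), and PHLDA1 in 11, lost without vehicle replicate 1 or 2 or 10 µM replicate 1 or 3. SPRY1 passed in 7, being lost under both scalings and without any 1 culture other than 10 µM replicate 2. The lower ETV1 at 10 µM vs. 5 µM passed in 9 and was lost without any 1 culture at 5 µM or without 10 µM replicate 1 or 3. The highest adjusted p in these settings was 0.405, for SPRY1.

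**Figure D5:**
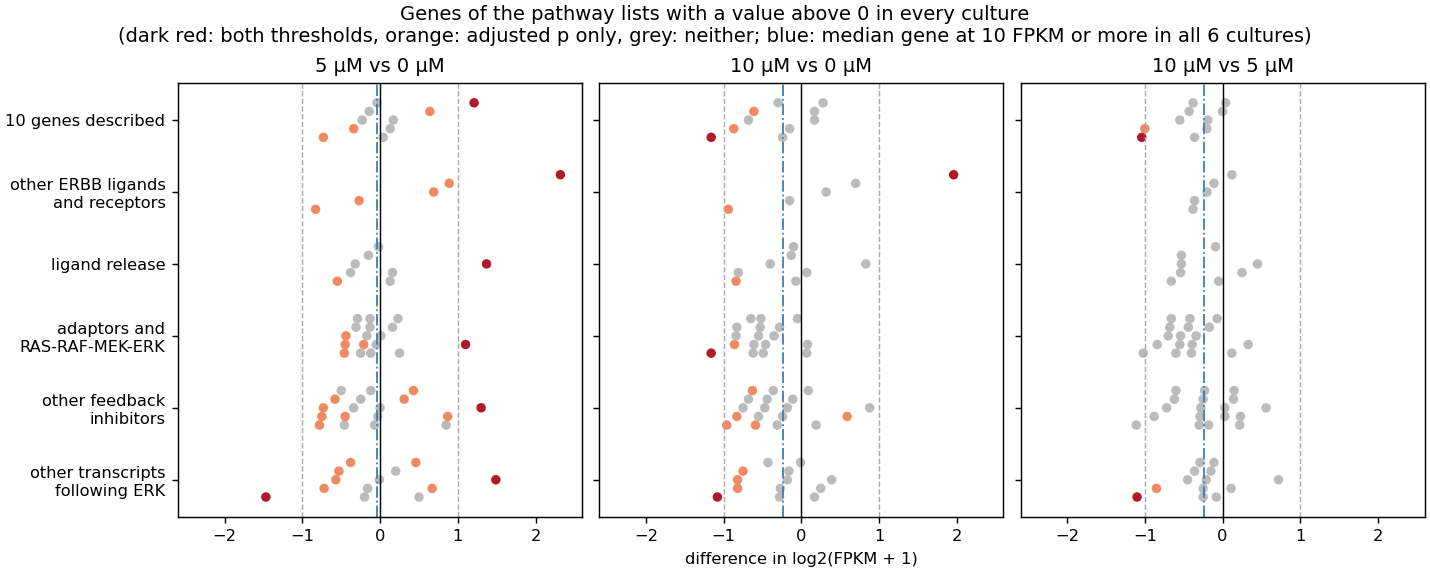
Differences in log2(FPKM + 1) of the 10 genes described and of the genes on 5 pathway lists, for each comparison, with 1 point per gene. Genes listed at 0 in any culture are not drawn, the vertical position within a list carries no meaning, and the blue line is the median gene. Each list holds genes on both sides of 0 at 5 µM vs. 0 µM, and at 10 µM vs. 0 µM most points lie left of 0.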

How the data were processed

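Paired-end RNA-Seq libraries of 9 HT-29 cultures were prepared with a kit that does not mark strand. Reads were trimmed and filtered (FASTX-Toolkit), mapped against hg19 (TopHat) and summarised per gene by the authors as FPKM (Cufflinks). The deposited files hold these FPKM values, 24934 entries under 23284 symbols. The release of the hg19 gene models used by the authors is not given in the sources used here. Entries that share a symbol (543 symbols) were summed.

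Differences are on the log2(FPKM + 1) scale. The added 1 is small beside these values, so the difference of a gene listed at 0 in 1 group comes out very large. For DUSP9 at 5 µM vs. 0 µM it was 10.82, and 1.49 to 14.14 in the alternative settings. Such sizes depend on the pseudocount. The 6 cultures of each comparison were fitted with limma 3.58.1 in R 4.3.3 (lmFit, eBayes with trend) over all genes that reached 10 FPKM in either group, without the replicate number as a block. Adjusted p-values are Benjamini-Hochberg over all genes tested, and a gene was called at an adjusted p of at most 0.05 with a log2 difference beyond 1 in either direction. The script was tested on simulated data. Within-culture ratios were compared by two-sided exact permutation tests. P-values measure the spread between these cultures of 1 line.

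The deposited FPKM values give no totals. At 12 microRNA genes of 110 nt the 46 values above 0 were all whole multiples of 1 step per library (tolerance 0.01). These steps set the relative term of each library. The fragments behind a gene were then estimated from its FPKM, its annotated length and 1 constant. That constant was the median of step times length over 617 genes with clear steps of their own. Of these same genes, 430 lay within 30% of the median, which shows their spread and is not an independent check. Such estimates cover counting error only and were not tested as counts. An exact 0 can be a failed estimate.

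Positions are from the GRCh37 annotation (hg19) and promoters from RefSeq on GRCh38.p14. The 10 genes and all lists were chosen with earlier results of these data known, so none of the counts is an independent test of the choice. All 10 genes were named, and from each list the genes past both thresholds (at most 4 per list and comparison), unless the text says otherwise. A gene that met this rule is left out of the text. Alternatives were other pseudocounts (0.1 and 1000), filters, scalings, sample sets, a replicate block, each culture left out and the largest entry of repeated symbols. Python 3.11.15, pandas 2.3.3, numpy 2.4.6, scipy 1.17.1 and matplotlib 3.10.9 made the tables and figures.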

Additional observations from a re-analysis of the deposited data

How the results depend on the processing

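The numbers of the 10 genes past a threshold moved with the settings, since 1 gene passed both thresholds in each comparison. With no fold change threshold the counts were 4, 3 and 2 for 5 µM vs. 0 µM, 10 µM vs. 0 µM and 10 µM vs. 5 µM. All 9 cultures in one fit left 2 genes at the adjusted p of 0.05 for 5 µM vs. 0 µM, with EGFR at 0.075 and DUSP6 at 0.0725. For 10 µM vs. 0 µM, 0 genes passed both thresholds without a filter on low values, where 1 passed the adjusted p, and 0 did under median-of-ratios or total scaling; for 10 µM vs. 5 µM it was 0 under both scalings. At an unadjusted p below 0.05, 4 genes passed in limma in each comparison. Leaving out 1 culture at a time gave 0 to 2 genes past both thresholds and 0 to 5 at the adjusted p for 10 µM vs. 0 µM, and 0 to 2 and 0 to 2 for 10 µM vs. 5 µM, with the higher counts without 10 µM replicate 2.

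The replicate block left 1 gene at the adjusted p for 10 µM vs. 5 µM, EREG moving to 0.0683, and SPRY2 moved to 0.0725 for 10 µM vs. 0 µM. Among the named list genes the block moved ADAM12 to 0.0851 (5 µM vs. 0 µM), SPRY1 to 0.066 (10 µM vs. 0 µM) and ETV1 to 0.0843 (10 µM vs. 5 µM), and it changed no other call among the genes named. Same-numbered cultures did not deviate together (correlations from -0.23 to 0.15, and from -0.31 to 0.25 for different numbers). Whether they were set up or handled together cannot be told from these values. Over all genes the block gave 407 lower genes past both thresholds for 10 µM vs. 5 µM, against 969.

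Direction turned only in genes that had not passed. Under total scaling, 5 µM vs. 0 µM became 0.15 in TGFA, 0.05 in SPRY2 and 0.25 in SPRY4, and 10 µM vs. 0 µM became 0.23 in DUSP4, 0.08 in DUSP6 and 0.14 in SPRY4. Under median-of-ratios scaling, 10 µM vs. 0 µM became 0.09 in DUSP4 and 0.0049 in SPRY4, and 10 µM vs. 5 µM became 0.20 in AREG, 0.01 in DUSP4 and 0.01 in SPRY4, with AREG at 0.09 under total scaling. Leaving out 1 culture at a time, SPRY4 ranged from -0.10 to 0.05 for 5 µM vs. 0 µM (above 0 without 5 µM replicate 2), DUSP4 from -0.30 to 0.0049 for 10 µM vs. 0 µM (above 0 without 10 µM replicate 1), and for 10 µM vs. 5 µM AREG from -0.08 to 0.13 (above 0 without 5 µM replicate 2 or 10 µM replicate 1) and DUSP6 from -0.08 to 0.12 (below 0 without 5 µM replicate 3 or 10 µM replicate 2). The cause of these shifts was not tested.

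Over all genes, 771 rose and 644 fell past both thresholds for 10 µM vs. 0 µM, against 1125 and 284 under median-of-ratios and 1362 and 164 under total scaling. Summing AREG with AREGB was not run, since AREGB is not a symbol of these files. Fewer samples enter each fit that leaves out a culture. With 3 cultures a group, an exact permutation test of 1 gene cannot go below 0.1.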
